A study of Homo sapiens with 18 samples.

Results

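The 10 genes described here encode regulators of the BCL2 family and were chosen by name: BCL2, BCL2L1, BCL2L2, BCL2A1 and MCL1, BAK1, and BCL2L11, BID, BIK and PMAIP1. All 10 had a row in the count table, which holds 20705 genes. Proteins of this family decide whether the outer mitochondrial membrane stays closed. Antiapoptotic members (BCL2, BCL2L1 or BCL-XL, BCL2L2 or BCL-W, BCL2A1 or BFL-1, and MCL1) bind and restrain the pore-forming effectors BAK1 and BAX, and BH3-only members (BCL2L11 or BIM, BID, BIK, and PMAIP1 or NOXA) relieve that restraint or activate the effectors directly. Melanoma cells are known for their reliance on MCL1, BCL-XL and, in part of the tumours, BFL-1, whose gene is a target of the melanocyte factor MITF.

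Poly-A RNA was sequenced from CHL1 and A375 cells, established human melanoma lines whose labels give the genotype as WT without naming a gene. The methods describe CHL1 as wild type for BRAF and NRAS with mutant p53, and A375 as BRAF mutant with wild-type p53. Cells received the vehicle DMSO (control), 1 μM palbociclib, a CDK4/6 inhibitor (CDK4/6i), or 500 nM GSK3326595, a PRMT5 inhibitor (PRMT5i). In CHL1 there was a control of 72 hours, CDK4/6i of 72 hours and of 6 days, and PRMT5i of 72 hours. A375 had the same 4 groups and a control of 6 days. Each of the 9 groups had 2 libraries, 18 in all. Each p53 and BRAF background is represented by 1 established line, and the labels say that 2 replicates of each condition were grown without saying whether they were separate cultures, so p-values measure the spread between these libraries, which may be technical. All 3 CHL1 treatments share the 72-hour control, and for the 6-day CHL1 group time and treatment cannot be told apart. The 72-hour A375 treatments share their control as well.

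The genes lie on 8 chromosomes, given here on GRCh37 with GENCODE gene models. BCL2 is at chr18:60790579-60987361 on the minus strand, PMAIP1 at chr18:57567228-57571537 on the plus strand, MCL1 at chr1:150533371-150552214 (minus), BAK1 at chr6:33540324-33548070 (minus), BCL2L1 at chr20:30252255-30311792 (minus), and BCL2A1 at chr15:80253234-80263538 (minus). BCL2L11 is on chromosome 2, BCL2L2 on 14, and BID and BIK on 22. Counts cover all exons of a gene, coding and untranslated, so the splice forms of BCL2L1, MCL1, BCL2L11 and BID, some of which are known to have opposite effects on survival, were not resolved. For the 4 genes whose changes are described most closely below, the 250 bases before a transcription start (RefSeq, GRCh38.p14) are printed 5′ to 3′, from chr18:63319770-63320019 (minus) for BCL2, chr6:33580277-33580526 (minus) for BAK1, chr18:59899746-59899995 (plus) for PMAIP1 and chr15:79971197-79971446 (minus) for BCL2A1. Capitals mark a motif found by search.
BCL2: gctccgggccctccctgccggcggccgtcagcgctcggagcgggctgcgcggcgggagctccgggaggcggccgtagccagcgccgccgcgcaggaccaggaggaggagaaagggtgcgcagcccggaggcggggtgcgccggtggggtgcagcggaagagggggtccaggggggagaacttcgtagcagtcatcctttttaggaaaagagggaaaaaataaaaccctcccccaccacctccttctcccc
BAK1: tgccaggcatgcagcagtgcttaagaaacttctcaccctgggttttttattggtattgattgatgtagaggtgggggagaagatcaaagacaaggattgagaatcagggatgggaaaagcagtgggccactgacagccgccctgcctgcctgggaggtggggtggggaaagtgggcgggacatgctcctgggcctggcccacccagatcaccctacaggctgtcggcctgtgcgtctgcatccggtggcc
PMAIP1: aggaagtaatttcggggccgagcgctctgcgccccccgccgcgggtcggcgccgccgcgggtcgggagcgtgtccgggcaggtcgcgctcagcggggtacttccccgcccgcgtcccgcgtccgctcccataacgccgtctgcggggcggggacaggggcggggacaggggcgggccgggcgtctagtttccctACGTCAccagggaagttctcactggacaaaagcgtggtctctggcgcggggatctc
BCL2A1: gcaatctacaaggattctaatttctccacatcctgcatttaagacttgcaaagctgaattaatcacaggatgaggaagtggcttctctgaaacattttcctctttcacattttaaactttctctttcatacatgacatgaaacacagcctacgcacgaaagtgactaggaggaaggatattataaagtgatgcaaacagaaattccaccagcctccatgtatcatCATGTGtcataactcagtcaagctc
The search covered both strands for 2 E2F sites (TTTCCCGC and TTTGGCGC), the E-box CACGTG, the MITF M-box CATGTG and the CREB half-site TGACGT. BCL2A1 held CATGTG at position -25 from the start, a motif present in 9.42% of 35116 promoter windows of this length, and PMAIP1 held ACGTCA, the reverse complement of TGACGT, at position -56 (7.1% of windows). None of these letters was found in the windows of BCL2, BAK1, BCL2L1 or BCL2L11, and BID held CACGTG (6.34%) and CACATG, the reverse complement of CATGTG. E2F sites of these spellings were in 1.39% and 0.55% of windows. MCL1, BCL2L2 and BIK had no window in the RefSeq table. The BCL2 and PMAIP1 windows were rich in G and C (70.0% and 72.8%), the BCL2A1 window was not (38.8%).

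Libraries held 16213475 to 37424081 counts. Levels are CPM, a gene's counts scaled to a common library total with TMM, and per-length levels divide CPM by the length of the longest coding transcript in kb. Both CHL1 PRMT5i libraries and both 6-day A375 control libraries stood apart by base composition: their log2 level of GC-rich against GC-poor genes was -2.33, -1.90, -2.19 and -1.11, whereas it lay between -0.34 and 0.56 in the other libraries. A fit with a GC correction, which covered 16363 genes and all 10 members, is given beside the members' results that rest on these libraries. All CHL1 libraries and the 6-day A375 libraries carry 1 set name in the labels and the 72-hour A375 libraries another. The melanocyte gene MITF was expressed in both lines (1704 to 4022 counts in CHL1, 1907 to 7035 in A375), and so was S100B (312 to 2681 and 71 to 3970). DCT had 978 to 4244 counts in CHL1 and 0 to 67 in A375, TYR 0 to 2 and 0 to 167, PMEL 13 to 51 and 18 to 91, and TYRP1 21 to 112 and 3 to 23. Under CDK4/6i all 5 proliferation genes checked (MKI67, CCNA2, CCNB1, CDC45 and E2F2) fell in both lines, except that E2F2 was not called in CHL1 at 72 hours (log2 fold change -0.78, edgeR adjusted p = 0.0622), and CCNB1 lost its call in A375 at 6 days with the GC correction (-0.41, adjusted p = 0.094). Of all genes, 4.98% and 16.6% were called in CHL1 at 72 hours and 6 days of CDK4/6i, and 13.3% and 43.1% in A375. Under PRMT5i, 1 of the 5 rose and 3 fell in CHL1 (54% of all genes called), or 0 and 2 with the GC correction (25.6%). In A375 PRMT5i 0 rose and 4 fell (2.61%). In bulk RNA, fewer cells of a type and less RNA per cell cannot be told apart.

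In control cells the antiapoptotic side was composed differently in the 2 lines. Per kb of transcript, BCL2 (43.1 ± 8.09 CPM per kb, SD, n = 2) and MCL1 (39.0 ± 1.6) led the family in CHL1 and did not differ beyond their spread. BID followed at 23.0 ± 0.685, BCL2L1 at 16.5 ± 1.04 and BAK1 at 14.2 ± 2.61, the last pair of neighbours within their spread. BCL2L11 (9.47 ± 0.41), BIK (9.00 ± 0.0883) and PMAIP1 (6.41 ± 0.911) were lower. In A375 at 72 hours MCL1 led with 85.4 ± 15.8 CPM per kb, ahead of BCL2L1 (38.3 ± 0.572), PMAIP1 (15.8 ± 1.59), BID (13.3 ± 0.447) and BAK1 (10.1 ± 1.33). BCL2 was near the bottom of that order with 3.80 ± 0.178, within the spread of BIK (4.01 ± 0.938) and below BCL2L11 (4.62 ± 0.278) by more than theirs. The order between genes depends on the length used. All exons of BID together span 4420 bases against 2495 in its longest coding transcript, and those of BCL2 12612 against 7461. For BAK1 (2212) and BIK (951) both lengths are equal, so BID and BCL2 would stand lower beside them by the longer length. As a share of the summed per-length level of the 5 antiapoptotic genes, BCL2 took 39.3% and 47.5% in the CHL1 controls and 3.35% and 2.65% in the 72-hour A375 controls. MCL1 took 42.3% and 36.9% in CHL1, so that its order with BCL2 changed between the replicates, and 63.3% and 69.7% in A375. With all exons as the length, BCL2 took 36.3% and 44.3% in the CHL1 controls and 2.93% and 2.34% in the 72-hour A375 controls. BCL2L2 and BCL2A1 together held under 1% of the sum in each CHL1 library, and BCL2A1 reached its highest share, 3.16% and 2.88%, in the 6-day CDK4/6i libraries of A375.

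**Figure D1:**
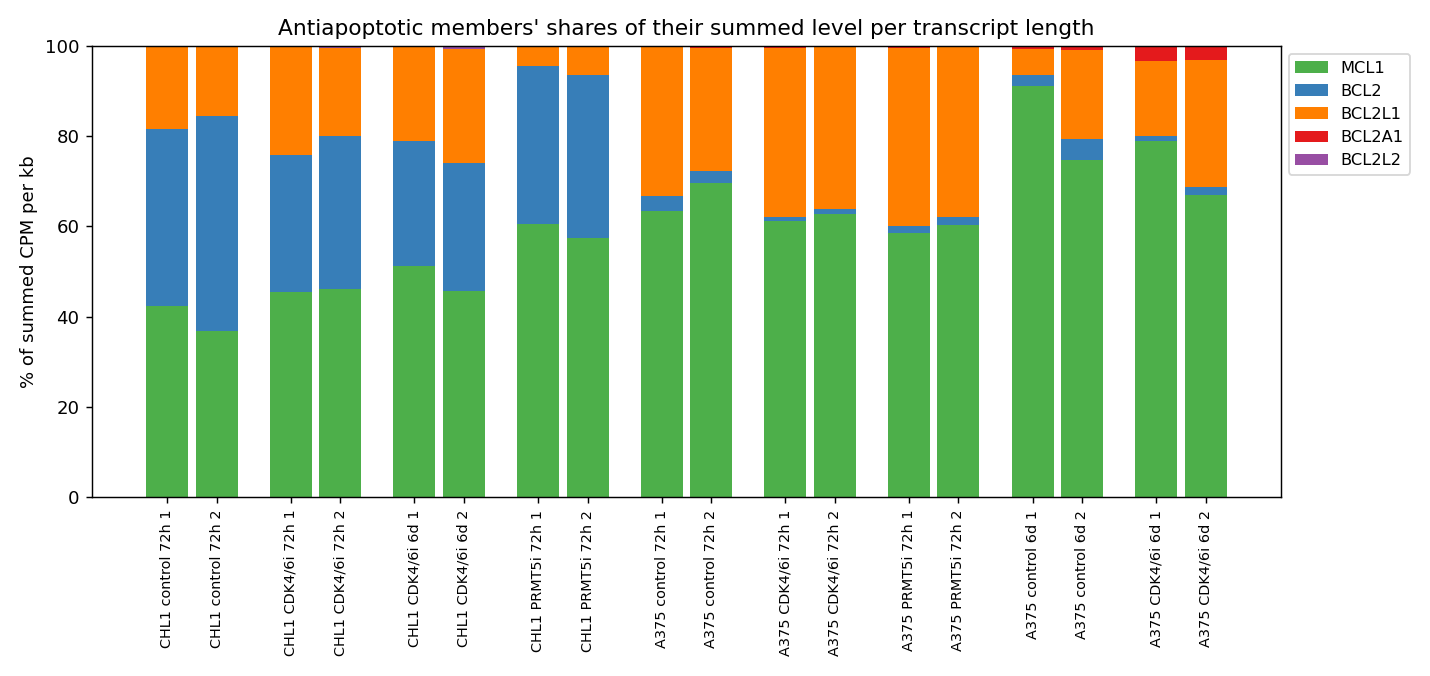
Share of each antiapoptotic member in their summed CPM per kb (%, vertical axis) in each of the 18 libraries (bars, with group and replicate on the horizontal axis). BCL2 filled between 27.7% and 47.5% of the bar in CHL1 and between 0.902% and 4.67% in A375, where MCL1 filled at least 58.5%.

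**Figure D2:**
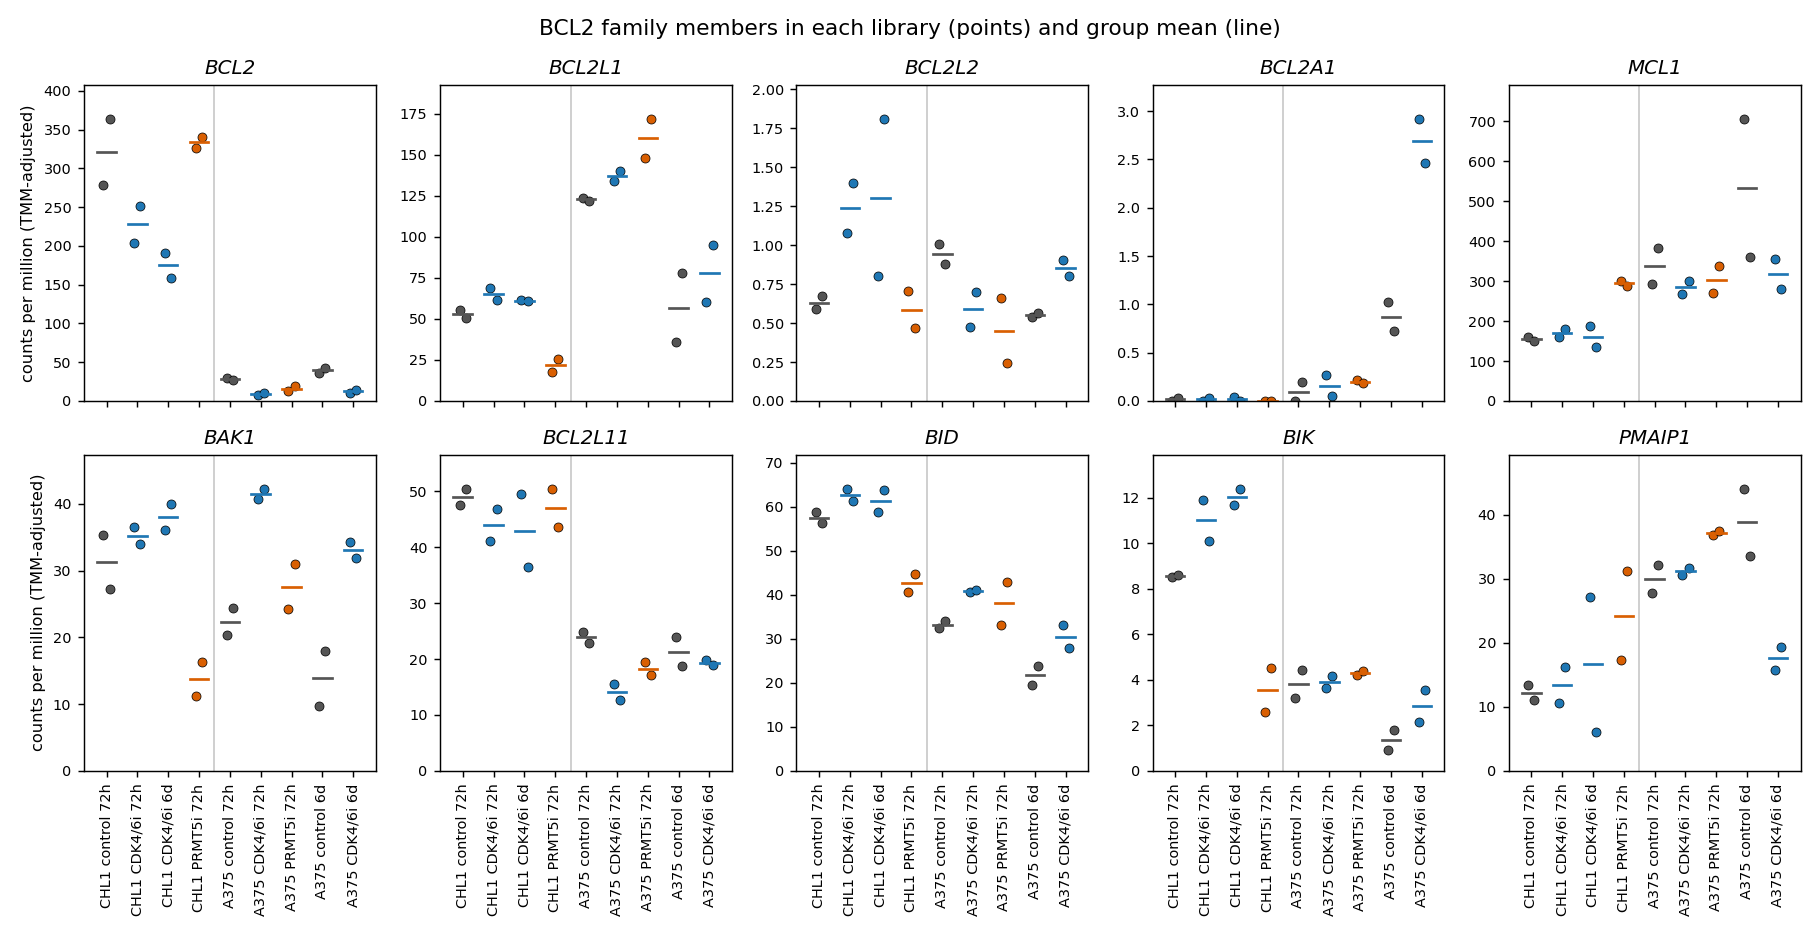
CPM (vertical axes, each from 0 and with its own scale) of the 10 members in the 2 libraries of each group (points) with the group mean (short lines). Grey is control, blue CDK4/6i and orange PRMT5i, with CHL1 left and A375 right of the vertical line. BCL2 lay at 159 to 364 CPM in CHL1 and at 7.45 to 42.5 CPM in A375.

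The direct comparison of the 72-hour controls gave 7 members that differed between the lines, against 58.9% of all genes. BCL2 was 11.3-fold lower in A375 (log2 fold change -3.50 ± 0.23 SE, edgeR adjusted p = 1.98e-10), and BCL2L11 (-1.04), BID (-0.79) and BIK (-1.16) were lower too. MCL1 (1.13), BCL2L1 (1.21) and PMAIP1 (1.30) were higher. Line and library set cannot be told apart among 72-hour libraries. The 6-day A375 controls, which carry the same set name as CHL1, had 36.2 and 42.5 CPM of BCL2 against 279 and 364 in the CHL1 controls. In these controls MCL1 and PMAIP1 also stayed above, and BCL2L11, BID and BIK below, the CHL1 controls in each library, whereas BCL2L1 (35.8 and 77.9 CPM) overlapped them (55.5 and 50.7). These levels set 6 days against 72 hours and are without the GC correction. The 6-day A375 controls carry the GC trend (-2.19 and -1.11), and their difference from the CHL1 controls was not tested. How many of all genes separated these libraries in the same way was not counted. All 7 calls between the 72-hour controls remained with the GC correction and BAK1 was also called, as lower in A375 (-0.82). The call of PMAIP1 ended without CHL1 control replicate 2 (adjusted p = 0.0907) or A375 control 72h replicate 2 (0.0642), and that of BIK without A375 control 72h replicate 1 (0.0622).

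Across the 6 comparisons of treated with control cells, the number of members called ranged from 0 to 6. CDK4/6i for 72 hours changed 0 of 10 members in CHL1 by edgeR, where 4.98% of all genes were called. There BCL2 and BCL2L2 had an unadjusted p under 0.05, DESeq2 called 0 as well, and a fit of only the compared groups called BCL2. After 6 days of CDK4/6i 1 member changed in CHL1 (16.6% of genes). In A375, 3 members changed at 72 hours (13.3% of genes) and 6 at 6 days (43.1%). PRMT5i changed 5 members in CHL1, against a background of 54% of all genes, and 0 in A375, where 2.61% were called. In that A375 comparison BCL2 had an unadjusted p under 0.05, and DESeq2 called it. None of these counts says that the members differed from other genes. Median log2 fold changes of the 10 members lay between -0.25 (CHL1 PRMT5i) and 0.46 (A375 CDK4/6i 6d), beside medians of 0 and 0.1 over all genes. The 7 markers of blood, epithelial and endothelial cells with a row moved with some of these treatments. Their summed level was 7.23 to 7.34 CPM in the 72-hour A375 controls and 20.1 to 20.3 CPM under CDK4/6i, and 8.44 to 17.9 CPM in the 6-day controls and 30.4 to 34.3 CPM under CDK4/6i. LYZ (1.89 and 2.33 on the log2 scale) rose at both times and KRT14 (1.90) at 72 hours. In CHL1 the sum was 8.72 to 8.95 CPM in controls, 10.4 to 13.4 CPM after 72 hours and 18.3 to 19.3 CPM after 6 days of CDK4/6i, and 15.8 to 17.3 CPM under PRMT5i, with PTPRC called in the last pair of groups (1.15 and 1.00; -0.08 under PRMT5i with the GC correction) and VWF at 6 days. KRT5 was at 0 in every CHL1 library, and CD14 stayed at or below 13 counts in all libraries. The part of these markers in the members' results was not tested.

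**Figure D3:**
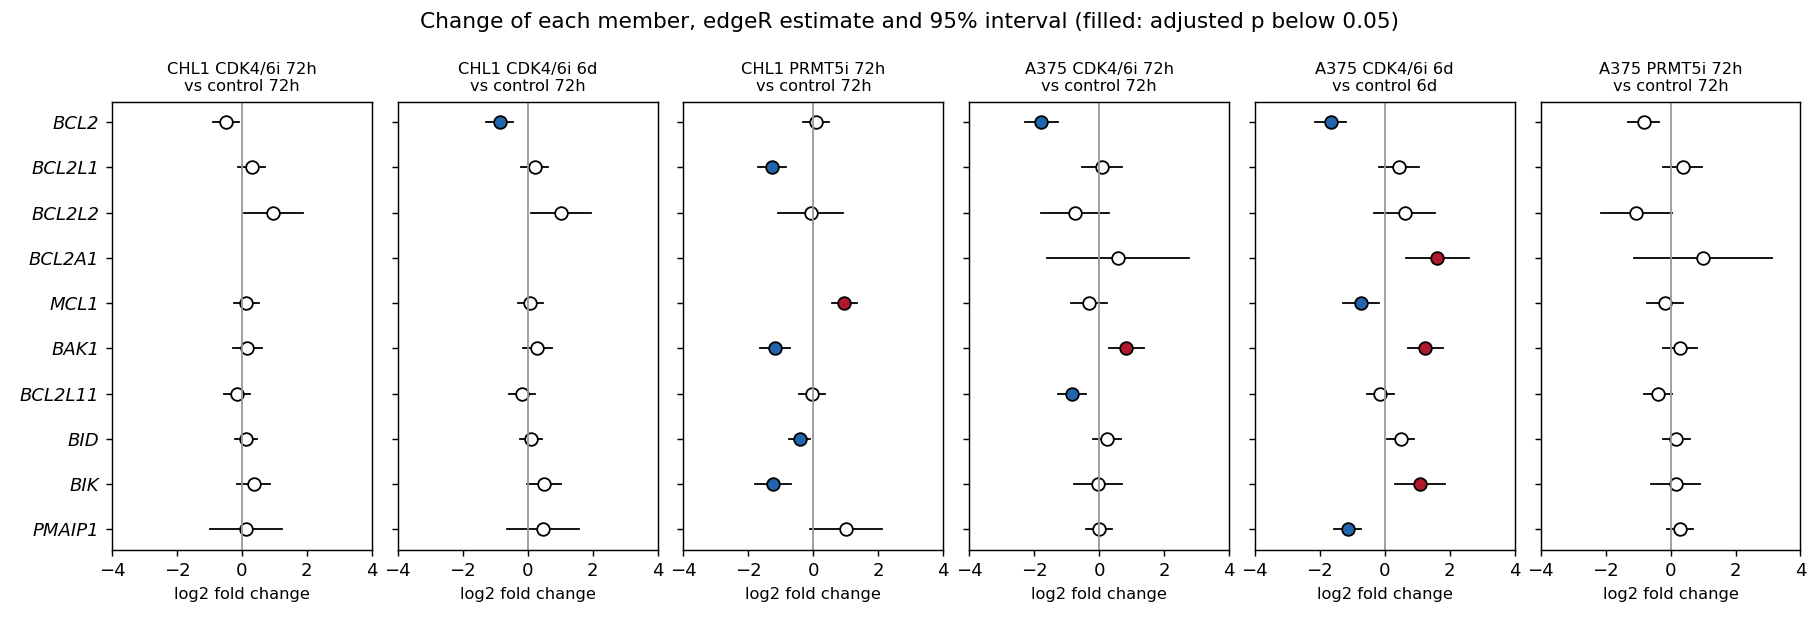
Log2 fold change of each member (points, horizontal axes) with its 95% interval (lines) in the 6 comparisons of treated with control cells. Filled points passed an adjusted p of 0.05, red for higher and blue for lower, and BCL2A1 is not drawn for CHL1, where it had at most 1 count. BCL2 lay left of 0 in 5 of the 6 panels.

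BCL2, the founding antiapoptotic gene of the family, was the member with the largest fall under CDK4/6i in A375. In CHL1 its level was lower in the CDK4/6i libraries too, and in the main fit was called only at 6 days. In A375 it measured 29.3 and 27.4 CPM in the 72-hour controls and 7.45 and 9.76 CPM after 72 hours of CDK4/6i. After 6 days, the controls had 36.2 and 42.5 CPM and the treated cells 10.6 and 14.2 CPM. At both times the treated libraries lay below both controls, without overlap. The falls were 3.43-fold at 72 hours (log2 fold change -1.78 ± 0.24 SE, edgeR adjusted p = 1.65e-04) and 3.19-fold at 6 days (-1.67 ± 0.23, adjusted p = 7.04e-05). Between the 2 times these changes differed by 0.10 on the log2 scale, with an interval from -0.58 to 0.79 (0.1 with the GC correction). The GC correction left them at -1.74 and -1.64, both called.

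In CHL1, BCL2 stood at 279 and 364 CPM in controls, 204 and 252 CPM after 72 hours of CDK4/6i, and 191 and 159 CPM after 6 days. Each treated library lay below both controls at either time. Against the 72-hour control the fall at 6 days was 1.82-fold (log2 fold change -0.86 ± 0.18 SE, edgeR adjusted p = 0.00898). Time and treatment cannot be told apart in that value. At 72 hours the difference was -0.50 ± 0.18 (edgeR adjusted p = 0.143). Without the second 6-day library (adjusted p = 0.0518) or the second control (0.134) the 6-day call ended, and with the GC correction it held (-0.73). The 2 lines' changes at 72 hours differed by -1.22 ± 0.30, larger falls being in A375, which missed the threshold over all genes (adjusted p = 0.0765, 0 of 10 members called and 4 with an unadjusted p under 0.05, against 0.642% of genes called) and passed it with the GC correction (-1.24, adjusted p = 0.0378) and in DESeq2 (-1.26, adjusted p = 0.00696).

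Under PRMT5i, BCL2 had 13.2 and 18.9 CPM in A375, both below the 72-hour controls of 29.3 and 27.4. The log2 fold change was -0.83 ± 0.23 (edgeR adjusted p = 0.0682), which missed the threshold in the fit of all A375 libraries. It passed in the fit of the 6 libraries of 72 hours (-0.84, adjusted p = 0.00569), added after seeing the data, with the GC correction (-0.82, adjusted p = 0.0376) and in DESeq2 (adjusted p = 0.0243). CHL1 cells under PRMT5i had 326 and 341 CPM of BCL2, inside the range of their controls (0.07 ± 0.18; -0.19 with the GC correction, neither called). Set directly against CDK4/6i at 72 hours, PRMT5i left A375 with 1.92-fold more BCL2 (0.94 ± 0.24, adjusted p = 0.0324), the only member called of 10 there against 5.45% of genes. That call ended when any of the 4 compared libraries was left out (adjusted p from 0.0769 to 0.31).

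MCL1, a short-lived antiapoptotic protein, had the highest or second-highest per-length level of the family in every group. In CHL1 it measured 159 and 150 CPM in controls and 300 and 288 CPM under PRMT5i. Both treated libraries lay above the controls. The rise was 1.94-fold (log2 fold change 0.95 ± 0.18 SE, edgeR adjusted p = 8.31e-04), and with the GC correction it was 0.63 ± 0.16 (adjusted p = 0.0151). It was the only member whose CHL1 PRMT5i call held after that correction. CDK4/6i left it at 135 to 187 CPM in CHL1, and its 72-hour changes in A375 were -0.31 ± 0.26 with CDK4/6i and -0.17 ± 0.26 with PRMT5i, none called. The 6-day A375 controls differed from each other (706 and 359 CPM), and the treated libraries had 356 and 279 CPM, the higher of which lay just below the lower control. The fall of 0.74 ± 0.26 on the log2 scale passed the test (adjusted p = 0.0312; -0.63, adjusted p = 0.0467 with the GC correction), but the estimate dropped to -0.21 (adjusted p = 0.459) without A375 control 6d replicate 1 and lost its call without A375 CDK4/6i 6d replicate 2 (-0.57, adjusted p = 0.207). Against the 72-hour control the 6-day value was -0.13 (adjusted p = 0.744).

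BCL2L1, whose long splice form is BCL-XL, was at 55.5 and 50.7 CPM in CHL1 controls and 17.5 and 25.8 CPM under PRMT5i. The groups did not overlap, and the uncorrected fall was 2.42-fold (-1.27 ± 0.19, edgeR adjusted p = 2.73e-04). With the GC correction it was -0.29 ± 0.14 (adjusted p = 0.145). In the other 5 comparisons no call was made. A375 under PRMT5i had 148 and 172 CPM against 124 and 122 in controls (0.37 ± 0.29), which passed only in the 6-library fit (0.37, adjusted p = 0.0296). In 6-day A375 cells the replicates differed 2.17-fold in the control and 1.57-fold under CDK4/6i, and the change was 0.44 ± 0.29 (-0.07 with the GC correction), called only without A375 control 6d replicate 2 (1.14, adjusted p = 6.85e-04). The antisense gene ABALON, which has no row, overlaps 41.3% of the exon bases of BCL2L1, and HTSeq counts on the gene's strand by default, but whether the library kit marked strand is not given in the sources used here, so reads from the 2 genes may not have been separated.

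BCL2A1, the BFL-1 gene, was close to absent from most of the libraries. CHL1 had 0 or 1 count in each of its 8 libraries, where 3 counts would be 0.101 to 0.143 CPM, and no fold change is given for that line. In A375 it lay between 0.00 and 0.264 CPM in the 6 libraries of 72 hours. The 6-day controls had 1.02 and 0.720 CPM and the 6-day CDK4/6i cells 2.92 and 2.46 CPM, both above both controls. This was a 3.08-fold rise (1.62 ± 0.46, edgeR adjusted p = 0.0104), and 2.10 ± 0.44 with the GC correction. The call ended without A375 CDK4/6i 6d replicate 1 (1.48, adjusted p = 0.0654). The response at 6 days exceeded that at 72 hours by 1.03 with an interval from -1.54 to 3.61 (1.36 with the GC correction, not called). A difference between times was therefore not detectable at these counts.

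For BCL2L2, the BCL-W gene, the row held 4 to 39 counts per library and none of its 6 changes was called (-1.05 to 1.03). The row BCL2L2-PABPN1, a readthrough gene that shares 815 exon bases with it on the same strand, held 110 to 1277 counts. Default counting assigns reads that fall on exons of both genes to neither row, so the BCL2L2 values are uncertain.

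BAK1, an effector that forms pores in the mitochondrial membrane, rose in A375 under CDK4/6i. At 72 hours it went from 20.3 and 24.4 CPM in controls to 40.8 and 42.3 CPM. At 6 days the controls had 9.77 and 17.9 CPM and the treated cells 34.3 and 31.9 CPM. Neither pair of groups overlapped. The rises were 1.79-fold (0.84 ± 0.25 SE, edgeR adjusted p = 0.037) and 2.37-fold (1.25 ± 0.25, adjusted p = 0.00116). Both stayed called with the GC correction, at 0.68 and 0.70. A block for replicate number ended the 72-hour call (0.85, edgeR adjusted p = 0.0516). The 72-hour call ended when any of the 4 compared libraries was left out (0.71 to 1.00, adjusted p from 0.102 to 0.255), and the 6-day value against the 72-hour control was 0.52 (adjusted p = 0.128).

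In CHL1 the CDK4/6i libraries had 34.0 to 40.0 CPM of BAK1 and the controls 35.4 and 27.3 CPM, with overlap at 72 hours and none at 6 days, and no call (0.17 ± 0.20 and 0.29 ± 0.20). Under PRMT5i CHL1 had 11.2 and 16.3 CPM, below both controls. The fall was 2.25-fold (-1.17 ± 0.21, edgeR adjusted p = 6.39e-04) and became -0.14 ± 0.15 (adjusted p = 0.536) with the GC correction. A375 under PRMT5i had 24.2 and 31.0 CPM, which overlapped its controls. The mitochondrial channel gene VDAC2, whose product holds BAK1, was not called in any of the 6 comparisons (-0.22 to 0.30), but was called as lower in CHL1 PRMT5i with the GC correction (-0.52, edgeR adjusted p = 0.0125).

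BCL2L11 encodes BIM, an activator that binds all antiapoptotic members. It was at 24.9 and 22.9 CPM in 72-hour A375 controls, 15.6 and 12.6 CPM under CDK4/6i and 19.5 and 17.1 CPM under PRMT5i. Both treatments lay below both controls. The fall under CDK4/6i was 1.76-fold (-0.82 ± 0.20, edgeR adjusted p = 0.0143; -0.81 with the GC correction), and the PRMT5i value of -0.40 ± 0.20 was not called. The CDK4/6i call ended when any of its 4 libraries was left out (adjusted p from 0.0655 to 0.208). At 6 days the treated cells (19.8 and 18.9 CPM) lay within the controls (23.9 and 18.7 CPM), a change of -0.14 ± 0.20 (-0.18 with the GC correction). The 2 responses to CDK4/6i differed by 0.68 ± 0.28 between the times, which was not called over all genes (edgeR adjusted p = 0.206; 0.63 with the GC correction, not called). CHL1 showed no called change, with 36.4 to 50.5 CPM over its 8 libraries.

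PMAIP1 encodes NOXA, which binds MCL1 and BFL-1, and is a known p53 target. In A375 it had 27.8 and 32.1 CPM in 72-hour controls, 30.6 and 31.7 CPM under CDK4/6i, and 36.8 and 37.5 CPM under PRMT5i. The PRMT5i libraries lay just above the controls, by 0.30 ± 0.19 on the log2 scale, which was not called (edgeR adjusted p = 0.482; 0.0907 with the GC correction). In the same comparison 7 of 8 other p53 targets rose (median 1.35, against 0 over all genes and 0.874% of genes called as higher), among them CDKN1A (1.94 ± 0.28), BAX (1.17 ± 0.26), the BH3-only gene BBC3 (1.35 ± 0.29) and SESN1 (1.08 ± 0.20). In A375 under CDK4/6i, 2 of these 8 rose at 72 hours (13.3% of all genes called), and 4 rose and 1 fell at 6 days (43.1%). With the GC correction 4 rose and 0 fell at either time (24.9% and 37.7%). In CHL1, 0 were called with CDK4/6i at either time (4.98% and 16.6%). CHL1 PRMT5i had 2 as higher and 3 as lower (54%), and 0 with the GC correction (25.6%). At 6 days PMAIP1 measured 44.1 and 33.6 CPM in controls and 15.7 and 19.4 CPM under CDK4/6i, a 2.21-fold fall (-1.14 ± 0.19, adjusted p = 2.94e-04). That fall was -0.24 ± 0.14 (adjusted p = 0.213) with the GC correction. PMAIP1 has the lowest GC content of the 10 members (36.7%). It also had the smallest adjusted p for a difference between 6 days and 72 hours in A375 (-1.14 ± 0.27, adjusted p = 0.0527, 0 of 10 members called and 3 with an unadjusted p under 0.05, against 1.08% of genes called), which passed with median-of-ratios scaling (0.0365) and in DESeq2 (0.00301) and was -0.50 (0.219) with the GC correction.

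In CHL1 the 6-day CDK4/6i replicates of PMAIP1 lay 4.45-fold apart (27.2 and 6.11 CPM), whereas 95% of genes in this group differed by at most 1.76-fold. PRMT5i cells had 17.3 and 31.2 CPM and controls 13.4 and 11.0 CPM, without overlap. The difference of 1.01 ± 0.51 was not called in the fit of all CHL1 libraries (edgeR adjusted p = 0.113) and was called in a fit of only the compared groups (1.07, adjusted p = 0.00881). With the GC correction its sign turned (-0.20 ± 0.43), so no direction is given.

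BID, which links death receptors to mitochondria once cleaved by caspase 8, was called in 1 of the 6 comparisons with controls, CHL1 PRMT5i. It had 58.7 and 56.3 CPM in CHL1 controls and 40.5 and 44.6 CPM under PRMT5i, below both. The fall was 1.33-fold (-0.42 ± 0.15, edgeR adjusted p = 0.0332) and -0.22 ± 0.13 (adjusted p = 0.249) with the GC correction. The call also ended with median-of-ratios scaling (0.0574) and without either control (0.162 and 0.108) or the first PRMT5i library (0.0773). In A375 at 6 days the treated libraries (33.2 and 27.8 CPM) lay above the controls (19.4 and 23.9 CPM), by 0.49 ± 0.20 (adjusted p = 0.0543). This value was called in the fit of all 18 libraries (0.0228), with the filter of 1 CPM (0.0445) and without A375 control 6d replicate 2 (0.68, adjusted p = 0.00486), and was 0.23 (0.232) with the GC correction.

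BIK, a BH3-only protein of the endoplasmic reticulum, was low in A375 (0.901 to 4.45 CPM) and higher in CHL1. CHL1 controls had 8.50 and 8.62 CPM and PRMT5i cells 2.58 and 4.52 CPM, a 2.38-fold fall without overlap (-1.25 ± 0.25, edgeR adjusted p = 0.00136). With the GC correction it was -0.43 ± 0.21 (adjusted p = 0.156). A375 at 6 days showed the opposite sign, with 0.901 and 1.78 CPM in controls and 2.16 and 3.53 CPM under CDK4/6i (1.07 ± 0.36, adjusted p = 0.0252; 0.58, adjusted p = 0.171 with the GC correction). Against the 72-hour control the sign turned again (-0.47, adjusted p = 0.333), and the call ended without A375 control 6d replicate 1 (0.189) or A375 CDK4/6i 6d replicate 2 (0.234). The CHL1 PRMT5i value stayed below 0 in every setting run, from -1.71 to -0.43.

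The GC correction is a curve on GC content alone, which by its design tends to move genes at the ends of the GC range most. In CHL1 PRMT5i the 4 members whose values moved most with the GC correction were the 3 with the highest GC content and the 1 with the lowest. BAK1 (58.8%), BCL2L1 (58.2%) and BIK (55.9%) were 2.25 to 2.42-fold lower there without it, and PMAIP1 lay above its controls. Called members then numbered 1 of 10 in CHL1 PRMT5i, against 25.6% of the 16363 genes, and 4 of 10 in A375 CDK4/6i 6d (37.7%), namely BCL2 and MCL1 as lower and BCL2A1 and BAK1 as higher. The correction called 11.4% of genes in CHL1 CDK4/6i 72h (0 members), 25.3% in CHL1 CDK4/6i 6d (1), 24.9% in A375 CDK4/6i 72h (3) and 9.01% in A375 PRMT5i (1). Among the other comparisons it called 0.0183% of genes between the times in CHL1 (0 members), 1.55% between the responses at the 2 times in A375 (0), 38.5% between the drugs in CHL1 (3), 16.1% between the drugs in A375 (1), 65.5% between the control lines (8), and 2.79% and 21.2% between the lines' responses to CDK4/6i (1) and PRMT5i (0). The GC trend moves with the whole PRMT5i group in CHL1, so treatment and library cannot be told apart there.

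**Figure D4:**
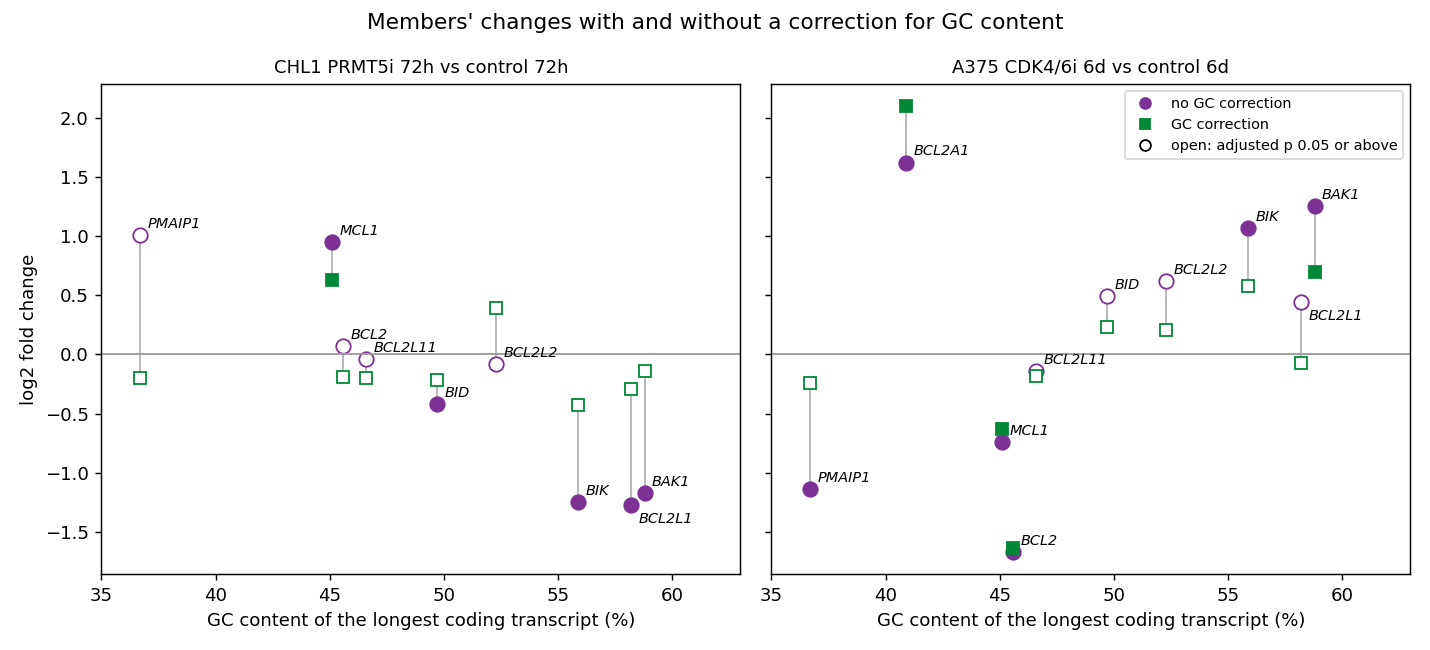
Log2 fold change of the members (vertical axis) by GC content of the longest coding transcript (%, horizontal axis) without (circles) and with (squares) the GC correction, in the 2 comparisons of treated with control cells that rest on libraries with a GC trend. Filled symbols passed an adjusted p of 0.05, and BCL2A1 is left out of the CHL1 panel. In CHL1 PRMT5i only MCL1 stayed filled, and in A375 at 6 days BCL2, MCL1, BCL2A1 and BAK1 did.

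PRMT5i and CDK4/6i at 72 hours differed for 6 members in CHL1, against 57.8% of all genes. PRMT5i cells had more BCL2 (0.57 ± 0.18) and MCL1 (0.81 ± 0.18) and less BCL2L1 (-1.57 ± 0.20), BAK1 (-1.34 ± 0.21), BID (-0.54 ± 0.15) and BIK (-1.61 ± 0.25). After the GC correction 3 stayed called, BCL2L1 (-0.49, edgeR adjusted p = 0.013), BID (-0.36, 0.0466) and BIK (-0.74, 0.0145), all lower under PRMT5i. The BCL2 call ended without CHL1 CDK4/6i 72h replicate 1 (0.39, adjusted p = 0.218) or CHL1 PRMT5i 72h replicate 2 (0.54, adjusted p = 0.0512). These 2 drugs were given at different doses and act on different enzymes, so the values describe these treatments only. The lines' responses to PRMT5i differed for 6 members, against 40.9% of all genes, and for 0 with the GC correction. Between 6 days and 72 hours of CDK4/6i in CHL1, 0 members were called by edgeR and 0 by DESeq2 (0.0145% of genes), none had an unadjusted p under 0.05, and BCL2 changed by -0.36 with an interval from -0.76 to 0.04.

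Among the wider BCL2 family and its relatives, 11 of 13 listed genes had a row. In CHL1, 0 were called with CDK4/6i at 72 hours (4.98% of all genes), and 2 as higher and 1 as lower at 6 days (16.6%). With PRMT5i 1 was called as higher and 5 as lower in CHL1, where 54% of all genes were called. A375 had 1 as higher at 72 hours of CDK4/6i (13.3% of all genes), 3 as higher and 2 as lower at 6 days (43.1%), and 2 as higher (BAX and BBC3) with PRMT5i (2.61%). With the GC correction the counts were 1 and 1 in CHL1 PRMT5i (25.6% of genes), and 1 and 2 in A375 at 6 days (37.7%). At 72 hours of CDK4/6i it called 1 as higher in CHL1 (11.4%) and 0 in A375 (24.9%). The other counts were as before. BAX, the other main effector, fell in CHL1 PRMT5i (-1.26 ± 0.22, edgeR adjusted p = 5.24e-04; -0.23, not called, with the GC correction) and rose in A375 at 6 days (0.92 ± 0.26, adjusted p = 0.00964; 0.39, not called). BNIP3L, a mitophagy receptor, rose in CHL1 at 6 days of CDK4/6i (0.72 ± 0.15) and PRMT5i (1.16 ± 0.15, and 0.00 with the GC correction) and fell in A375 at 6 days (-0.91 ± 0.26, and -0.01).

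Downstream of the mitochondria, 12 of 13 genes of the apoptosome, the caspases and their regulators had a row. BIRC3, an inhibitor of apoptosis, rose with CDK4/6i in CHL1 at 72 hours (2.13 ± 0.47, edgeR adjusted p = 0.026) and 6 days (2.16 ± 0.47, adjusted p = 0.0101) and in A375 at 72 hours (1.04 ± 0.27, adjusted p = 0.0176). Its neighbour BIRC2 rose in CHL1 at 6 days (0.93 ± 0.16, adjusted p = 0.00304) and with PRMT5i (1.57 ± 0.16, 0.47 with the GC correction, both called) and fell in A375 at 6 days (-0.69 ± 0.20, 0.10 with the GC correction, not called). In CHL1 PRMT5i, BIRC3 rose by 1.30 ± 0.49, a value of 0.02 with the GC correction. Of the whole list, 1 gene rose at 72 hours of CDK4/6i in either line and 0 fell (2 and 0 in CHL1 and 1 and 2 in A375 with the GC correction), 2 rose at 6 days in CHL1 (3 with it), and in A375 at 6 days 2 rose and 4 fell (3 and 3 with the GC correction). Of all genes, 4.98% in CHL1 and 13.3% in A375 were called at 72 hours (11.4% and 24.9% with the correction). At 6 days these shares were 16.6% and 43.1% (25.3% and 37.7%). With PRMT5i 6 rose and 3 fell in CHL1, against 54% of all genes called, and the median of the list was 0.25. The GC correction left 2 and 1 there (25.6% of genes called), with a median of -0.14. In A375 PRMT5i 0 of 12 were called, where 2.61% of all genes were, and 1 rose with the GC correction (9.01%). The death receptor arm (11 genes) had at most 3 called in each of the 6 comparisons with controls. The highest counts were 3 as lower in CHL1 PRMT5i (54% of all genes called) and 3 as higher in A375 at 6 days (43.1%). With the GC correction 2 were lower in CHL1 PRMT5i (25.6% of genes), and 4 higher and 2 lower in A375 at 6 days (37.7%). It also gave 4 as higher in A375 at 72 hours of CDK4/6i (24.9%), 2 as higher in CHL1 at 6 days (25.3%) and 2 as higher in A375 PRMT5i (9.01%). TRADD, an adaptor of this arm, rose in A375 under CDK4/6i at 72 hours (0.90 ± 0.24) and 6 days (0.74 ± 0.24, and 0.20, not called, with the GC correction). It fell in CHL1 PRMT5i (-1.39 ± 0.30, and -0.16, not called, with the GC correction). FBXW7, part of a ligase known to degrade MCL1, fell in A375 under CDK4/6i at 72 hours (-0.70 ± 0.20, adjusted p = 0.0319) and 6 days (-1.23 ± 0.20, adjusted p = 2.65e-04) and rose in CHL1 PRMT5i (1.55 ± 0.17, adjusted p = 8.38e-05). All 3 values of FBXW7 were called with the GC correction too. It is 1 of 4 listed genes of MCL1 turnover and BAK1 binding, with HUWE1, USP9X and VDAC2. Of these 4, 2 rose and 1 fell in CHL1 PRMT5i (54% of all genes), or 1 and 1 with the GC correction (25.6%). In A375 under CDK4/6i 0 rose and 1 fell at 72 hours (13.3%). By 6 days 1 rose and 1 fell in that line (43.1%), or 2 and 1 with the correction (37.7%). None of the 4 was called in A375 PRMT5i (2.61%), nor in CDK4/6i-treated CHL1 cells, be it the 72-hour (4.98%) or the 6-day group (16.6%). Beside such shares, 0 of 4 does not set the list apart from other genes.

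Of 10 known transcriptional regulators of the members, 0 were called in CHL1 with CDK4/6i at 72 hours (4.98% of all genes) or 6 days (16.6%). In A375 PRMT5i 0 were called (2.61%). In CHL1 PRMT5i 2 rose and 7 fell, beside 54% of all genes, and 1 rose and 3 fell with the GC correction (25.6%). With that correction 2 fell in CHL1 at 72 hours of CDK4/6i (11.4%), 1 at 6 days (25.3%) and 1 in A375 PRMT5i (9.01%). In A375, 1 fell at 72 hours of CDK4/6i (13.3% of all genes called), which was E2F1 (-1.55 ± 0.26, edgeR adjusted p = 0.00109). At 6 days 2 rose and 1 fell (43.1%). With the GC correction 1 rose and 2 fell at 72 hours (24.9%), and 1 rose and 3 fell at 6 days (37.7%). The gene that fell at 6 days without the correction was MITF (-1.05 ± 0.19, adjusted p = 4.99e-04; -0.60 with the GC correction), in the comparison in which BCL2A1 rose. Of the 6 melanocyte markers with a row, MITF alone fell there, and PMEL, DCT and S100B rose. With the GC correction 2 of the 6 rose and 1 fell. PMEL, DCT and S100B also rose in A375 after 72 hours of CDK4/6i. E2F1 and MITF were singled out after their values were seen.

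Over the 9 group means, taken as differences from the mean of their line, the genes most like BCL2 by Pearson's r were LYPD6 (0.978), FAM111B (0.974) and CENPH (0.97), out of 15658 genes that averaged 1 CPM or more. For BCL2A1 these were VIT (0.995), PARM1 (0.993) and SHE (0.991). BCL2 and BCL2A1 were the members with the widest range of such means (2.08 and 1.75 log2 units). The 9 points share libraries, depth and base composition, and the closest of this many genes are expected to have high values, so these r are a description.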

How the data were processed

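RNA of 18 libraries (9 groups of 2) was sequenced. According to the methods and the submitters' processing notes, the authors aligned paired reads to GRCh37 with HISAT2 2.0.4 and counted reads per Ensembl gene using HTSeq and its default settings (the notes name 0.11.2, the methods another version). The notes and the methods also name edgeR, and the methods state that genes of low expression were removed for that step. The study's supplement lists more expressed genes for every library than the 20705 rows of the table. The table is therefore a reduced set, by a rule not given in the sources used here, and shares of all genes refer to its rows. The deposited table holds raw counts: all values are whole and totals differ, although its file name speaks of normalised values. No column was left unused (0).

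In R 4.3.3, edgeR 4.0.16 (quasi-likelihood, TMM, prior count 0.125) was fitted on all 20705 genes for each line with all its groups, 8 libraries for CHL1 and 10 for A375, and on all 18 for contrasts between lines. P-values were adjusted by Benjamini-Hochberg over all genes and called below 0.05. In all, 13 comparisons were tested. Standard errors are the log2 fold change over the root of F, and intervals cover 95%. The members and lists were chosen with earlier results of these data known. Text values cover every member. Genes of other lists are named if called in at least 3 of the 6 comparisons with controls, at most 4 per list, plus BAX and BBC3. VDAC2, HUWE1, USP9X, E2F1 and MITF were named beyond that rule. The floor was 3 counts per library.

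GC content came from GENCODE 44 transcripts on GRCh37 (15208 symbols matched directly, 1155 as older names, 87.4% of genes averaging 1 CPM or more). A loess curve (span 0.4) of each library's log2 deviation on GC content entered edgeR as an offset. Alternatives were median-of-ratios scaling, a filter of 1 CPM in 2 libraries, a replicate block, 1 fit of all libraries or of the compared groups, the 72-hour A375 control at 6 days, DESeq2 1.42.0 and leaving out each library. The procedure was tested on simulated data. Libraries held 16213475 to 37424081 counts, and errors given are those between libraries.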

Additional observations from a re-analysis of the deposited data

Results flagged for a closer look

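The response to PRMT5i at 72 hours differed between the lines for 6 of the 10 members, by an interaction contrast in the fit of all 18 libraries (A375 minus CHL1, 40.9% of all genes called). The difference was -0.88 for BCL2 (edgeR adjusted p = 0.0245) and -1.09 for MCL1 (0.0196), with values in A375 PRMT5i of -0.83 and -0.17 against 0.07 and 0.95 in CHL1. It was 1.67 for BCL2L1 (0.00246), 1.5 for BAK1 (0.0025), 1.44 for BIK (0.0155) and 0.63 for BID (0.0407), which had lower values in CHL1 PRMT5i cells. With the GC correction these differences were -0.55, -0.70, 0.68, 0.46, 0.63 and 0.46, and none of the 6 passed (adjusted p from 0.0916 to 0.258, 21.2% of genes called). Leaving out 1 library left 3 to 5 of the calls. The GC trend of the CHL1 PRMT5i libraries moves with these differences. Groups of 2 libraries were not examined for outlying samples.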

How the results depend on the processing

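Counts of members called, out of 10, kept within 1.5 times of the reported count except as follows. With the GC correction they went from 5 to 1 for CHL1 PRMT5i, from 6 to 3 for CHL1 PRMT5i against CDK4/6i, from 6 to 0 for the difference between lines under PRMT5i, and from 0 to 1 for A375 PRMT5i and for the difference between lines under CDK4/6i. The GC correction with the replicate block gave the same counts (1, 3, 0, 1 and 1). A375 PRMT5i had 1 member called with all libraries in 1 fit, with only the compared groups and in DESeq2, and 2 in the 6 libraries of 72 hours, a fit chosen after seeing the data. A375 PRMT5i against CDK4/6i had 2 with only the compared groups and in that 6-library fit, and CHL1 CDK4/6i 72h had 1 with only the compared groups. The difference between times in A375 had 1 with median-of-ratios scaling and in DESeq2, which also called 1 in the difference between lines under CDK4/6i. With the 72-hour control, which is of the other library set, 3 members were called at 6 days in A375, where BIK changed sign (-0.47). Leaving out 1 library gave 4 to 8 for A375 CDK4/6i 6d, 1 to 1 for A375 CDK4/6i 72h, 0 to 5 for the difference between times in A375 (5 without A375 control 6d replicate 2), 0 to 2 for CHL1 CDK4/6i 6d, 0 to 0 for A375 PRMT5i against CDK4/6i, 3 to 5 for the difference between lines under PRMT5i, 4 to 5 for CHL1 PRMT5i, 5 to 6 for CHL1 PRMT5i against CDK4/6i and 6 to 7 for the controls of the lines. The single library left in a group was assumed to vary like the other groups. Over all members and comparisons, 44 of 640 such values lost a call and 9 gained one. DESeq2 gave no adjusted p for 13 values. The causes were not tested. Shares of all genes called are given only for the main fit and the GC correction. The counts of members under the other settings therefore do not show whether the members moved differently from other genes. The replicate block took BAK1 from the calls of A375 CDK4/6i 72h (2 members, adjusted p = 0.0516), BID from the difference between lines under PRMT5i (5) and PMAIP1 from the controls of the lines (6), and changed no other call. Equal numbers were not taken as pairs in the main fit: there are 2 of them, and the labels do not say what they stand for. Deviations of same-numbered libraries correlated across genes at -0.31 to 0.43 in CHL1. In the 72-hour A375 groups all were positive, at 0.19, 0.22 and 0.42. For the pair at -0.31, the CHL1 CDK4/6i groups of 2 times, a block with crossed numbers called 0 as well. The 6-day A375 libraries carry no numbers in the labels. With 2 libraries per group, members with small changes and BCL2A1 and BCL2L2 with few counts could be missed.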
